A study of Mus musculus with 30 samples.

Results

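Netrins are secreted guidance cues related to laminins. In the retina, netrin-1 at the optic disc draws the axons of retinal ganglion cells (RGCs), the output neurons of the eye, into the optic nerve through the receptor DCC. Neogenin is the close relative of DCC and also receives repulsive guidance molecules, DSCAM is an adhesion protein described as a netrin receptor, and the UNC5 receptors turn the response to netrin into repulsion. The 9 genes described here are the ligand genes Ntn1 and Ntn4 and the receptor genes Dcc, Neo1, Dscam, Unc5a, Unc5b, Unc5c and Unc5d. They were taken by symbol from both deposited tables, where all 9 stand among 38720 listed genes, and all 9 passed the filter on low values in both comparisons.

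Poly(A) RNA was sequenced from retinas of pups at postnatal day 0, split with magnetic beads against CD90 into an RGC fraction and a fraction of the remaining cells, which the labels call pooled. The tables cover 9 of 18 RNA libraries, 3 of mutant non-RGC cells, 3 of mutant RGCs and 3 of wild type (WT, C57BL/6) RGCs. The labels hold 2 mutant genotypes, Math5Cre; Ezh2f/fG9af/+ and Math5Cre; Ezh2f/f, and the tables say only "mut", so mutant stands here for either. Both combine floxed Ezh2, the gene of a histone H3 lysine 27 methyltransferase, with a Cre active in the Math5 (Atoh7) lineage, which also gives rise to retinal neurons other than RGCs. The first has 1 floxed copy of the gene of the H3 lysine 9 methyltransferase G9a as well. WT samples are labelled by strain alone, so Cre and background differ along with the floxed alleles. The 12 samples of chromatin immunoprecipitation and its inputs were not analysed here.

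The libraries held between 10559040 and 12269290 reads assigned to genes. The numbers 1 to 3 given to them here follow their size factors, highest first, and are not the sample numbers of the labels. Since no label names separate animals, p-values reflect how far these libraries vary, which may be technical variation. Pairs of libraries in a group had a mean chi-square for each gene of 1.89 to 21.14, where counting error alone gives about 1. Ezh2 had between 2181 and 2354 normalised counts in mutant non-RGC libraries, between 1829.9 and 1982 in mutant RGC libraries and between 1166 and 1592 in WT RGC libraries. Ehmt2, which encodes G9a, had 3015, 3281 and 2775 in mutant non-RGC libraries, 2388, 2827 and 2992 in mutant RGC libraries and 3782, 3639 and 3896 in WT RGC libraries. In the libraries labelled mutant Ezh2 was thus not lower, while every Ehmt2 value lay below every WT value. Counts over a whole gene do not check the deletion of single exons, and which genotype the tables hold was not settled from them. WT library 3, mutant RGC library 1 and mutant non-RGC library 3 stood apart from the others of their groups, each with a mean chi-square of at least 12.02 to both. WT library 3 had a summed level of 24 proliferation genes of 33472 normalised counts, against 19295 and 21163 in WT libraries 1 and 2. Mutant RGC library 1 had 9525 for 14 microglia markers, against 2932 and 2574 in mutant RGC libraries 2 and 3. Mutant non-RGC library 3 had a sum of 9813 for 26 ganglion cell markers, while the other non-RGC libraries had 15165 and 17778. Genes with a read were also fewest there, at 19870.

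Sequences before a listed start are shown for Dscam and Unc5a, which were lower in mutant than in WT RGCs, and for Ntn4, which was higher. Each is the 250 bases before a start that the RefSeq table of GRCm38.p6 gives, read 5′ to 3′ on the strand of the gene, with CG dinucleotides in capitals. They lie at chr16:97170736-97170985 on the minus strand for Dscam, chr13:54949161-54949410 on the plus strand for Unc5a and chr10:93640799-93641048 on the plus strand for Ntn4. The Ntn4 window ends where its gene begins. Unc5a as a whole gene begins at 54945151 and Dscam reaches to 97171113, so their windows lie inside the genes.
Dscam: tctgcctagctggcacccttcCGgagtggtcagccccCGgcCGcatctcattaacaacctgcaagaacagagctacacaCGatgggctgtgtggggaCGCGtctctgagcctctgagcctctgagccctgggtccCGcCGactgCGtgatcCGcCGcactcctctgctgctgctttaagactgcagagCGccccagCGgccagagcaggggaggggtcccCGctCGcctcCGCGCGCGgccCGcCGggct
Unc5a: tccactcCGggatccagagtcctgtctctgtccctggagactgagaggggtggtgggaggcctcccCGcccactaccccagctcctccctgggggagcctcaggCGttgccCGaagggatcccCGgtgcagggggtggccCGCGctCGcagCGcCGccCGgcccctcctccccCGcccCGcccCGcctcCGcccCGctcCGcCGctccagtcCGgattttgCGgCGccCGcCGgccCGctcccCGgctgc
Ntn4: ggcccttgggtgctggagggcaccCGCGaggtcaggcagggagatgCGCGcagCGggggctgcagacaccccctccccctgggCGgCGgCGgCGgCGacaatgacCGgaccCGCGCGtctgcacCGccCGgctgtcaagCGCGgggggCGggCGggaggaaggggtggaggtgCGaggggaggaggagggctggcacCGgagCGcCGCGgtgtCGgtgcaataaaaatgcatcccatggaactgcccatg
These windows hold 21 CG dinucleotides for Dscam, 25 for Unc5a and 26 for Ntn4. The table also covers Neo1 with 45, Unc5b with 27 and Unc5c with 23. The Neo1 window lies partly inside its gene. The median over the 32851 windows of the table is 6, and 16.3% of windows have at least 21. The E-box CANNTG, which reads the same on both strands and is the kind of motif that Atoh7 and its relatives bind, stands in 66.2% of all windows. It stands in none of the 6 member windows counted here. That says only that these letters are not in these windows.

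**Figure D1:**
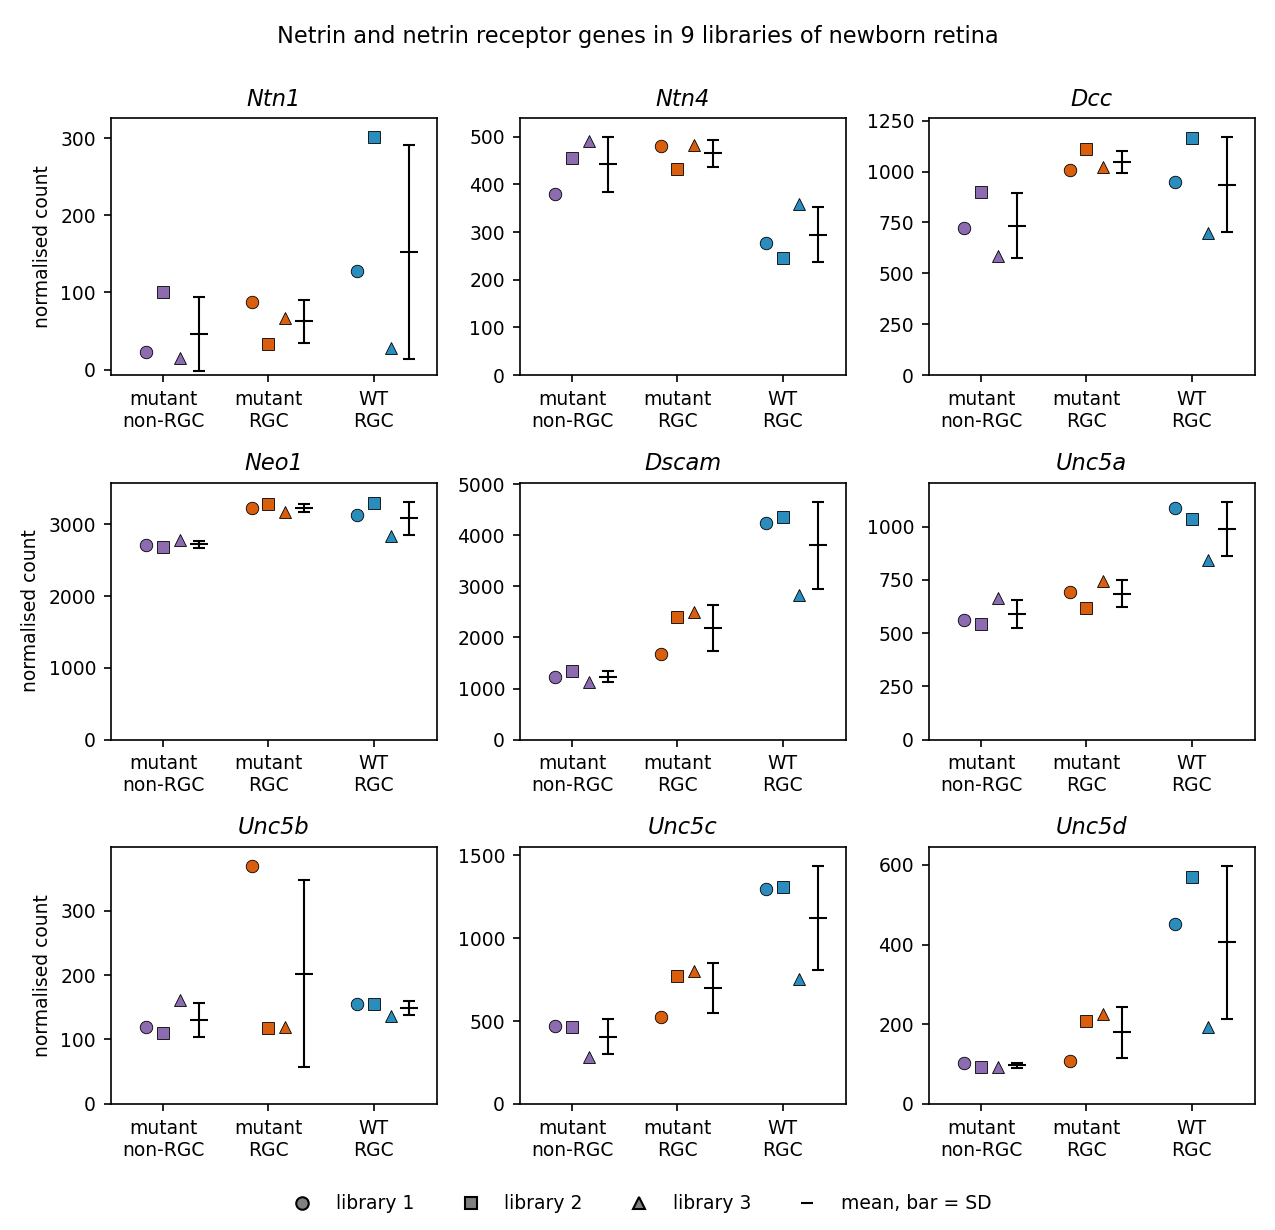
Normalised counts of the 2 netrin and 7 receptor genes on the y axis in each library of mutant non-RGC cells, mutant RGCs and WT RGCs, with the mean and SD of 3 libraries beside the points. WT RGC libraries stand above all mutant RGC libraries for Dscam and Unc5a and below them for Ntn4, and single libraries stand out for Ntn1 and Unc5b.

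Between mutant and WT RGCs, Ntn4 rose, and Dscam and Unc5a fell. The other 6 genes did not pass the test. All log2 fold changes are of normalised count + 1, from a limma fit over all genes tested, and genes were called at an adjusted p under 0.05. The 3 called genes are 1 of 9 higher and 2 of 9 lower, where 13.7% of the 15277 genes tested were called higher and 12.3% lower, 26.0% in all. The groups did not overlap for the same 3 of 9 genes, against 51.1% of all genes tested. The 9 went both ways, with 4 positive and 5 negative log2 fold changes. Their median of -0.49 is the value of Unc5a, against a median of 0.0043 over all genes tested. With 9 genes, 1 call fewer would bring the share below 26.0%. In bulk libraries fewer cells of a type and less RNA per cell cannot be told apart.

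Ntn4 encodes a netrin of basement membranes that binds laminin. Its normalised counts were 379, 455 and 491 in the mutant non-RGC libraries, 480.5, 433 and 482 in the mutant RGC libraries and 278, 247 and 359 in the WT RGC libraries. Every library of mutant cells, from either fraction, thus stood above every WT library. Mutant RGCs averaged 465 ± 27.9 and WT RGCs 294 ± 57.8 (SD, n = 3 each), a log2 fold change of 0.71 (SE 0.15, adjusted p = 0.0277 by limma). The fractions overlapped, at a log2 difference of -0.08 between mutant non-RGC cells and mutant RGCs (SE 0.11, adjusted p = 0.670 by limma). The authors' deposited table gives Ntn4 an adjusted p of 0.00367 between the genotypes and of 1 between the fractions.

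Ntn1, the netrin of the optic disc, was uneven between libraries of each group. It had 22.3, 101 and 14.5 normalised counts in mutant non-RGC libraries, 87.9, 33.0 and 66.9 in mutant RGC libraries and 128, 302 and 27.7 in WT RGC libraries. All 3 groups overlapped, and library 2 of the non-RGC cells and library 2 of the WT stood above the others of their groups. The log2 fold change was -0.78 between mutant and WT RGCs (SE 0.84, adjusted p = 0.507 by limma) and -0.83 between mutant non-RGC cells and mutant RGCs (SE 0.70, adjusted p = 0.474 by limma). Without WT library 3 the first was -1.71 and passed the test (limma adjusted p = 0.0494), and without WT library 2 it was -0.01 (limma adjusted p = 0.9899). Of all genes tested, 6479 of 15305 were called without WT library 3, against 3971 of 15277 with all libraries. The genes whose levels ran most like those of Ntn1 over the 9 libraries were Islr, at a Pearson r of 0.9901, and Serpinf1, at 0.984, both genes of secreted proteins. Islr had 26.2, 167 and 22.9 normalised counts in mutant non-RGC libraries, 156, 36.8 and 93.4 in mutant RGC libraries and 179, 425 and 34.3 in WT RGC libraries, high and low in the same libraries as Ntn1. Summed over 7 pericyte markers, levels were 999, 1361 and 822 in mutant non-RGC libraries, 3897, 938 and 1069 in mutant RGC libraries and 1157, 2419.8 and 976 in WT RGC libraries. The part of such cells in the Ntn1 values was not tested.

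Dcc and Neo1, the receptor genes of netrin attraction, did not pass the test between genotypes. Dcc had 721, 899 and 585 normalised counts in mutant non-RGC libraries, 1008, 1109 and 1021 in mutant RGC libraries and 947, 1163 and 696 in WT RGC libraries. The mutant RGC libraries lay within the range of the WT libraries, with a log2 fold change of 0.22 (SE 0.18, adjusted p = 0.366 by limma). Neo1 had 2712, 2679 and 2775 in mutant non-RGC libraries, 3227, 3285 and 3172 in mutant RGC libraries and 3123, 3295 and 2834 in WT RGC libraries. Its SD was 48.9, 56.3 and 233 in these groups, and its log2 fold change between mutant and WT RGCs was 0.10 (SE 0.07, adjusted p = 0.317 by limma). These are misses of a threshold and do not show that the genotypes had the same level.

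Dscam, which encodes an adhesion molecule that spaces the cell bodies and neurites of ganglion and amacrine cells in the mouse retina, stood in 1 order over the 3 groups with no overlap between neighbours. It had 1225, 1345 and 1133 normalised counts in mutant non-RGC libraries, 1674, 2403 and 2492 in mutant RGC libraries and 4235, 4368 and 2827 in WT RGC libraries. Means were 1235 ± 106 in mutant non-RGC cells, 2189.7 ± 449 in mutant RGCs and 3810.0 ± 854 in WT RGCs (SD, n = 3 each). Mutant RGC library 1 and WT library 3 were the lowest of their groups. Between mutant and WT RGCs Dscam fell by 0.76 on the log2 scale (SE 0.22, adjusted p = 0.0487 by limma), close to the threshold. The authors' deposited table gives an adjusted p of 0.0388.

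Of the repulsive receptor genes, Unc5a fell in mutant RGCs. It had 564, 543 and 667 normalised counts in mutant non-RGC libraries, 695, 619 and 743 in mutant RGC libraries and 1089, 1036 and 846 in WT RGC libraries. Every WT library stood above every library of mutant cells. The means of RGCs were 686 ± 62.4 in the mutant and 990.1 ± 128 in WT (SD, n = 3 each), a log2 fold change of -0.49 (SE 0.12, adjusted p = 0.0318 by limma), and the authors' deposited table gives an adjusted p of 0.0266.

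Unc5c and Unc5d had the same order of group means as Dscam, with overlap between mutant and WT RGCs. Unc5c had 471, 465 and 284 normalised counts in mutant non-RGC libraries, 525, 774 and 800.4 in mutant RGC libraries and 1295, 1312 and 757 in WT RGC libraries. Unc5d, a receptor that also binds FLRT proteins, had 104, 93.9 and 92.5 in mutant non-RGC libraries, 107, 207 and 226 in mutant RGC libraries and 453, 569 and 194 in WT RGC libraries. In both genes WT library 3 lay among the mutant RGC libraries, and mutant RGC library 1 was the lowest of its group. The log2 fold changes between mutant and WT RGCs were -0.63 for Unc5c (SE 0.26, adjusted p = 0.113 by limma) and -1.06 for Unc5d (SE 0.46, adjusted p = 0.121 by limma). Without WT library 3 they were -0.88 and -1.52 and both passed (limma adjusted p = 0.0239 each). That setting called 6479 of 15305 genes tested, 3096 of them lower, against 3971 of 15277 with all libraries.

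Unc5b, which is known from the tip cells of growing blood vessels, was set apart by 1 library. It had 119.5, 111 and 161 normalised counts in mutant non-RGC libraries, 369, 118 and 119 in mutant RGC libraries and 155, 155 and 136 in WT RGC libraries. Mutant RGC library 1 stood far above the other 8 libraries, which lay between 111 and 161, while the other 2 mutant RGC libraries lay below all WT libraries. The log2 fold change was 0.25 with all libraries (SE 0.42, adjusted p = 0.678 by limma) and -0.27 without mutant RGC library 1 (limma adjusted p = 0.194). That library also had the highest sums of 12 endothelial markers, 8373 against 5382 and 5607 in mutant RGC libraries 2 and 3, and of 7 pericyte markers, 3897 against 938 and 1069. Kdr made up most of the endothelial sums. On the scale of the genotype comparison it averaged 5107 in mutant RGCs, against 91.7 for Pecam1 and 185 for Cdh5. Endothelial sums of mutant non-RGC libraries, between 6117 and 6932, lay above those of mutant RGC libraries 2 and 3. Plvap, an endothelial gene, was the second most like Unc5b over the 9 libraries, at a Pearson r of 0.934, with 206, 27.3 and 39.3 normalised counts in mutant RGC libraries. The gene most like it was the glutamate receptor gene Grik3, at 0.937. The part of vessel cells in these values was not tested.

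The calls between genotypes were lost when most single libraries were left out. Calls over all genes fell too, from 3971 with all libraries to 2284, 3 and 9 without mutant RGC library 1, 2 or 3. They were 9 and 8 without WT library 1 or 2, and 6479 without WT library 3. Of 6 settings that leave out 1 library, only that without WT library 3 kept the calls of Dscam, Unc5a and Ntn4 (limma adjusted p = 0.0167, 0.00661 and 0.00294). For Dscam the adjusted p from limma was 0.0894, 0.0845 and 0.0768 without mutant RGC library 1, 2 or 3, and 0.163 and 0.146 without WT library 1 or 2. For Unc5a it was 0.0603, 0.0864, 0.0671, 0.125 and 0.109 in the same order, and for Ntn4 0.0518, 0.0731, 0.0741, 0.116 and 0.0946. The log2 fold changes kept their direction in all 6, between -0.96 and -0.56 for Dscam, between -0.60 and -0.42 for Unc5a and between 0.59 and 0.86 for Ntn4.

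**Figure D2:**
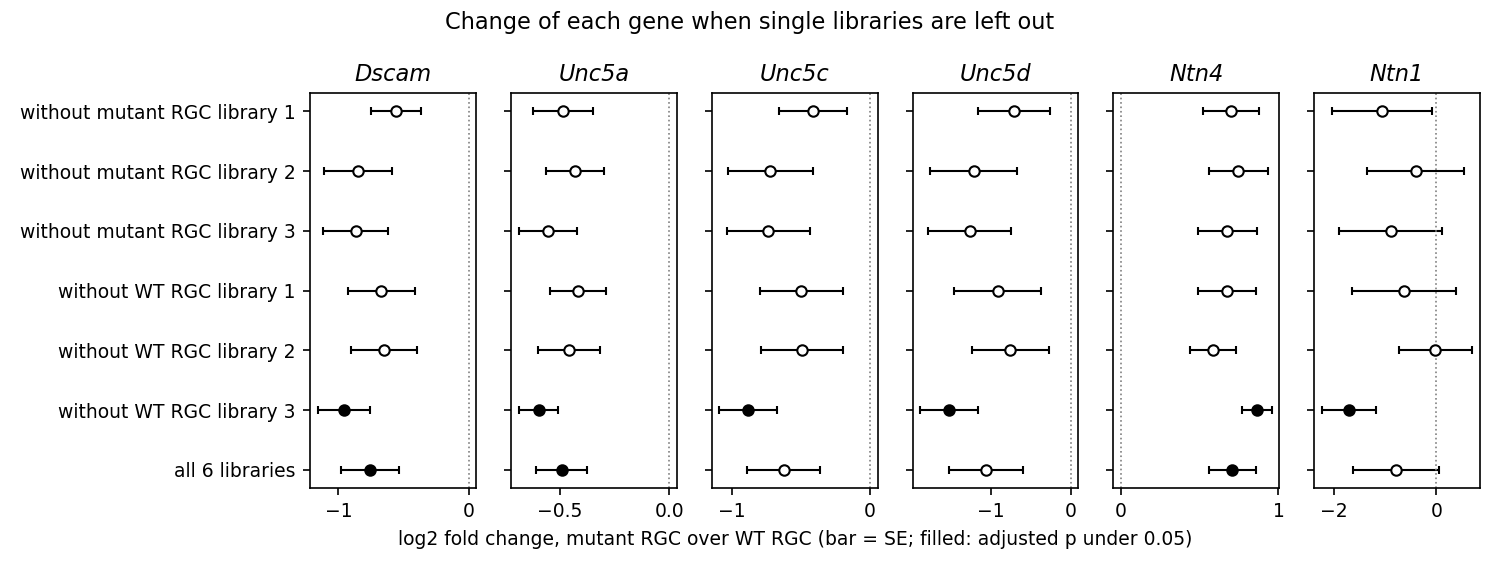
Log2 fold change of mutant over WT RGCs on the x axis for 6 of the genes, with all 6 libraries and without each library in turn down the page, bars giving the SE and filled points an adjusted p under 0.05. Dscam, Unc5a and Ntn4 stay on their side of 0 throughout and are filled only with all libraries and without WT library 3, where Unc5c, Unc5d and Ntn1 are filled too.

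Markers of several cell types that the fractions could hold differed between mutant and WT RGCs, where 13.7% of all genes were called higher and 12.3% lower. All 26 ganglion cell markers were lower in mutant RGCs and 12 passed the test, with Nefh at -1.67 and Chrna6 at -1.37 on the log2 scale. Thy1, the gene of the CD90 used to split the fractions, is among the 26. It averaged 1320 in mutant RGCs and 2258 in WT RGCs on the scale of this comparison. The summed level of the 26 was between 28859.8 and 46140.2 normalised counts in mutant RGC libraries and between 58659.6 and 70917 in WT RGC libraries. Mutant RGC library 1 and WT library 3 were the lowest of their groups, as for Dscam, Unc5c, Unc5d and Dcc. Of these Dcc did not have a lower mean in mutant RGCs. WT library 3 was the lowest WT library for every member except Ntn4. Of 24 proliferation genes 23 rose, with Cenpf at 1.31 and Cenpe at 1.15, and their sum was between 44028 and 45464 in mutant RGC libraries and between 19295 and 33472 in WT RGC libraries. Among 19 progenitor and Mueller glia markers 6 rose (Olig2 at 1.68, Slc1a3 at 0.92), among 15 photoreceptor markers 7 (Thrb at 1.46, Opn1sw at 1.13), and among 14 amacrine markers 8 rose and 3 fell (Gad1 at 0.59, Tfap2b at 0.75). The 7 horizontal cell markers went both ways, with 4 positive and 3 negative values and a median of 0.12. Of these 2 rose (Lhx1 at 1.40, Prox1 at 0.74), and Calb1 at -0.74 and Onecut1 at -0.48 had an unadjusted p under 0.05 without passing. In other lists 1 marker rose of the 7 astrocyte and optic disc markers tested (Vax1 at 0.87) and of 12 endothelial markers (Kdr at 0.53). The endothelial markers went both ways, with 6 positive and 6 negative values and a median of 0.23. Of 7 pericyte and 14 microglia markers none passed by limma, none had an unadjusted p under 0.05 and none was called in the authors' deposited table. No marker of these lists was at 0 in a whole group. Their part in the values of the 9 genes was not tested.

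Between mutant non-RGC cells and mutant RGCs, all 9 genes had a lower mean in the non-RGC cells. Dscam and Neo1 fell. None rose by limma, 0 of 9 were higher at an unadjusted p under 0.05 and 0 of 9 in the authors' deposited table. That is 2 of 9 lower, where 12.003% of the 15179 genes tested were called lower, 5.07% higher and 17.1% in all. The groups did not overlap for 5 of 9 genes, all lower in non-RGC cells (Dcc, Neo1, Dscam, Unc5c and Unc5d), against 20.6% lower and 37.7% in all. The median log2 fold change of the 9 was -0.53, against 0.013 over all genes tested. The split of all calls depended on the scaling, with 770 genes higher and 1822 lower by the authors' size factors and 1471 higher and 1601 lower by total counts. Both comparisons use the same 3 mutant RGC libraries.

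Dscam fell by 0.81 on the log2 scale in non-RGC cells (SE 0.16, adjusted p = 0.0180 by limma) and Neo1 by 0.25 (SE 0.05, adjusted p = 0.0185 by limma). The change of Neo1 was small beside that of Dscam, with libraries of each group in a narrow range. The authors' deposited table calls Dscam (adjusted p = 0.0137) and not Neo1 (adjusted p = 0.405). It calls Dcc, at an adjusted p of 0.0334, which missed the threshold here at a log2 fold change of -0.53 (SE 0.15, adjusted p = 0.0517 by limma) and passed without non-RGC library 2 (log2 -0.69, limma adjusted p = 0.0292). Unc5c had a log2 fold change of -0.80 (SE 0.25, adjusted p = 0.0660 by limma) and Unc5d of -0.82 (SE 0.29, adjusted p = 0.0942 by limma). Without mutant non-RGC library 3, the lowest non-RGC library for Dcc and Unc5c, their log2 values were -0.37 and -0.55 (limma adjusted p = 0.0707 and 0.115). Unc5c and Unc5d both passed without mutant RGC library 1, at -1.002 and -1.17 (limma adjusted p = 0.0222 and 0.00245). That setting called 3324 of 15066 genes tested, against 2592 of 15179 with all libraries. Neither Unc5a, at -0.22 (SE 0.11), nor Unc5b, at -0.43 (SE 0.43), passed (limma adjusted p = 0.214 and 0.544), and Unc5b had a log2 value of 0.11 without mutant RGC library 1.

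The Dscam call between fractions was lost without mutant RGC library 2 or 3 (limma adjusted p = 0.0704 and 0.0653) or non-RGC library 1 (0.0738). That of Neo1 was lost without mutant RGC library 2 or 3 (limma adjusted p = 0.09635 and 0.0797) or non-RGC library 1 or 2 (0.0773 and 0.0680). Calls over all genes fell there too, from 2592 to 595 and 623 without mutant RGC library 2 or 3. Without non-RGC library 1 or 2 they were 438 and 1244. All 26 ganglion cell markers, which include the Thy1 gene of the CD90 used for the split, were lower in non-RGC cells. Of these 17 passed, with Elavl4 at -1.33 and Nefh at -1.29. The sum of the 26 was between 9813 and 17778 normalised counts in mutant non-RGC libraries and between 28859.8 and 46140.2 in mutant RGC libraries. All 14 microglia markers fell, with C1qc at -6.37 and Ctss at -6.30 on the log2 scale, and 13 of 24 proliferation and 5 of 19 progenitor and Mueller glia markers rose, with Aurka at 0.36 and Hes5 at 0.55. Of all genes tested, 5.07% were called higher and 12.003% lower. The authors' deposited table calls 2 of the proliferation and 2 of the progenitor and Mueller glia markers higher. It calls 10 of the microglia and 21 of the ganglion cell markers lower. The amacrine list had Gad2 at 0.27 and Calb2, which ganglion cells also express, at -1.52, with 1 each of 14 called higher and lower. Of 15 photoreceptor markers Rxrg fell, at -0.52, while 12 had a positive value and the median was 0.14. None of the horizontal, astrocyte and optic disc, endothelial and pericyte markers passed by limma, 2 of them, both horizontal cell markers, had an unadjusted p under 0.05, and the authors' deposited table calls 1. The part of these cells in the values of Dscam and Neo1 was not tested.

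**Figure D3:**
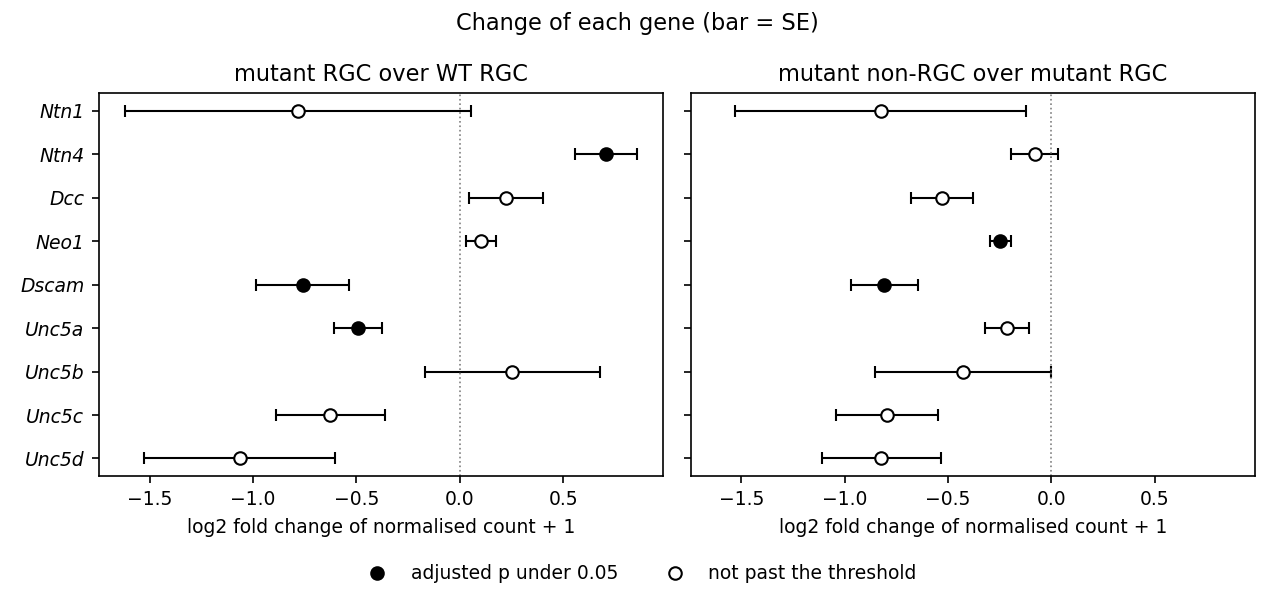
Log2 fold change with its SE on the x axis for each of the 9 genes, for mutant over WT RGCs on the left and mutant non-RGC cells over mutant RGCs on the right, filled where the adjusted p was under 0.05. Ntn4, Dscam and Unc5a are filled on the left and Neo1 and Dscam on the right, where all 9 points lie below 0.

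The genes most like each of the others over the 9 libraries, by Pearson r of log2(normalised count + 1) against 11938 named genes with a mean of at least 50, describe the same groups of libraries and carry no test. Dscam ran with the phosphatase gene Mtmr7 (r = 0.9997) and with Rusc2 (0.998), Unc5c with the neuron navigator gene Nav3 (0.999) and the protocadherin gene Pcdh9 (0.996), and Unc5d with the postsynaptic gene Dlgap1 (0.989) and Tmem132d (0.989). Unc5a ran with the ceramide synthase gene Cers4 (0.989) and Pxk (0.987), Dcc with the homeobox gene Cux1 (0.967) and the lipid kinase gene Pikfyve (0.935), and Neo1 with the ubiquitin ligase gene March6 (0.970) and the glutamine transporter gene Slc38a1 (0.968). Ntn4 ran with the nuclear pore gene Pom121 (0.979) and Rnf26 (0.977). The 9 points are 3 libraries in each of 3 groups, so these values largely repeat the differences between groups.

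Other genes of netrin signalling were followed in 6 lists, of which 80 genes could be tested between genotypes and 82 between fractions. In mutant RGCs 20 of 80 fell, where 12.3% of all genes were called lower, and 6 of 80 rose, where 13.7% were called higher, with a median log2 fold change of -0.13. In mutant non-RGC cells none of 82 rose, where 5.07% of all genes were called higher. Of the 82, 2 had a higher level at an unadjusted p under 0.05 by limma and 0 in the authors' deposited table. By limma 22 of 82 fell, against 12.003% of all genes, with a median of -0.14. Normalised counts of these genes are on the scale of each comparison. Among other netrins and the membrane-anchored netrin-G genes, which do not signal through DCC, Ntng1 averaged 405 normalised counts in mutant RGCs and 940.3 in WT RGCs, a log2 value of -1.30 (SE 0.35, adjusted p = 0.0417 by limma). Ntng2 averaged 1241 in mutant RGCs and 721 in WT RGCs, at a log2 value of 0.79 (SE 0.20, adjusted p = 0.0360 by limma). In non-RGC cells Ntng1 averaged 94.2, against 414 in mutant RGCs (log2 -2.07), and Ntn3 171 against 288 (log2 -0.75). Ntn5 had too few reads to be tested. The netrin-G ligand genes Lrrc4 and Lrrc4c passed in neither comparison.

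In the list of other ligands and partners of these receptors, 1 of 16 rose and 5 fell between genotypes, and 6 of 17 fell between fractions. Of all genes tested, 13.7% were called higher and 12.3% lower between genotypes, and 12.003% lower between fractions. The integrin subunit gene Itga6 averaged 1098 normalised counts in mutant RGCs and 539 in WT RGCs, a log2 value of 1.04 (SE 0.14, adjusted p = 0.0215 by limma). Itga3 fell by 0.81, the DSCAM relative Dscaml1 by 0.74 and the secreted C1q-like Cbln4 by 1.84, and of the neogenin ligand genes Rgmb fell by 0.50 and Rgma by 0.70. In non-RGC cells Draxin, whose product binds DCC and netrin-1, fell by 1.09, the UNC5 ligand gene Flrt2 by 0.44, Itga3 by 0.64, Rgmb by 0.59 and the BMP receptor gene Bmpr2 by 0.35, and Cbln4 was at -2.62. Of these the authors' deposited table does not call Bmpr2 (adjusted p = 0.149).

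Further inside the cell, 2 of 19 adaptor and kinase genes rose and 4 fell in mutant RGCs, and 3 of 20 fell in non-RGC cells. The shares over all genes were 13.7% higher and 12.3% lower in mutant RGCs and 12.003% lower in non-RGC cells. Pitpna, a lipid transfer protein gene, fell by 0.33, Pick1 by 0.54 and the kinase genes Cdk5 and Pak1 by 0.52 and 0.47 in mutant RGCs. There Appl1 rose by 0.24 and the focal adhesion kinase gene Ptk2 by 0.27. The authors' deposited table does not call Pitpna (adjusted p = 0.180), Appl1 (0.436) or Ptk2 (0.353) between genotypes. The microtubule protein gene Map1b, whose WT counts could not be recovered and which was tested between fractions alone, fell by 0.61 in non-RGC cells, Pak1 by 0.57 and Prkca by 0.30. Of 11 small GTPases and their regulators, Dock1 rose by 0.91 in mutant RGCs while Elmo1, whose product works with that of Dock1 in activating Rac, fell by 0.86. In non-RGC cells Elmo1 and Arhgef12 fell by 1.18 and 0.33. Between fractions the authors' deposited table calls neither Prkca (adjusted p = 0.281) nor Arhgef12 (0.142).

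Among 17 actin and microtubule effectors, 1 rose and 5 fell in mutant RGCs, and 5 fell in non-RGC cells. Here too the shares over all genes were 13.7% higher and 12.3% lower in mutant RGCs and 12.003% lower in non-RGC cells. Genes of actin-binding LIM proteins were in both sets. Ablim3 averaged 1832 normalised counts in mutant RGCs and 3661 in WT RGCs (log2 -1.03, SE 0.26, adjusted p = 0.0347 by limma), and 308 in mutant non-RGC cells against 1873 in mutant RGCs (log2 -2.79, SE 0.50, adjusted p = 0.0143 by limma). Ablim1 was at a log2 value of -0.78 in mutant RGCs and of -1.59 in non-RGC cells. Vasp fell by 0.43 and Ezr, which encodes a membrane linker of actin, rose by 0.86 in mutant RGCs, and Dpysl2, the gene of the collapsin response mediator CRMP2, fell by 0.34 in mutant RGCs and 0.43 in non-RGC cells, where the neuron navigator gene Nav1 fell by 0.76. Of 12 genes of ubiquitin ligases, trafficking and cleavage, 4 fell in each comparison. They were Siah2 at -0.47, Snap25 at -0.44, Stx1a at -0.98 and Vamp2 at -0.33 in mutant RGCs, and Trim67 at -1.46, Snap25 at -0.37, Stx1a at -1.06 and Adam10 at -0.24 in non-RGC cells. The authors' deposited table does not call Vasp (adjusted p = 0.0647), Dpysl2 (0.147) or Vamp2 (0.181) between genotypes. Between fractions it does not call Snap25 (0.0883) or Adam10 (0.443). Snap25, Stx1a and Vamp2 encode proteins of vesicle fusion, TRIM67 and SIAH2 are ubiquitin ligases, and ADAM10 is a protease that sheds membrane proteins. In the comparisons named for them these genes fell, as did the ganglion cell markers given above, whose part was not tested. Between genotypes the log2 values of the authors' deposited table were 0.11 for Adam10 and -0.76 for Trim67. Between fractions they were -0.03 for Siah2 and -0.23 for Vamp2.

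**Figure D4:**
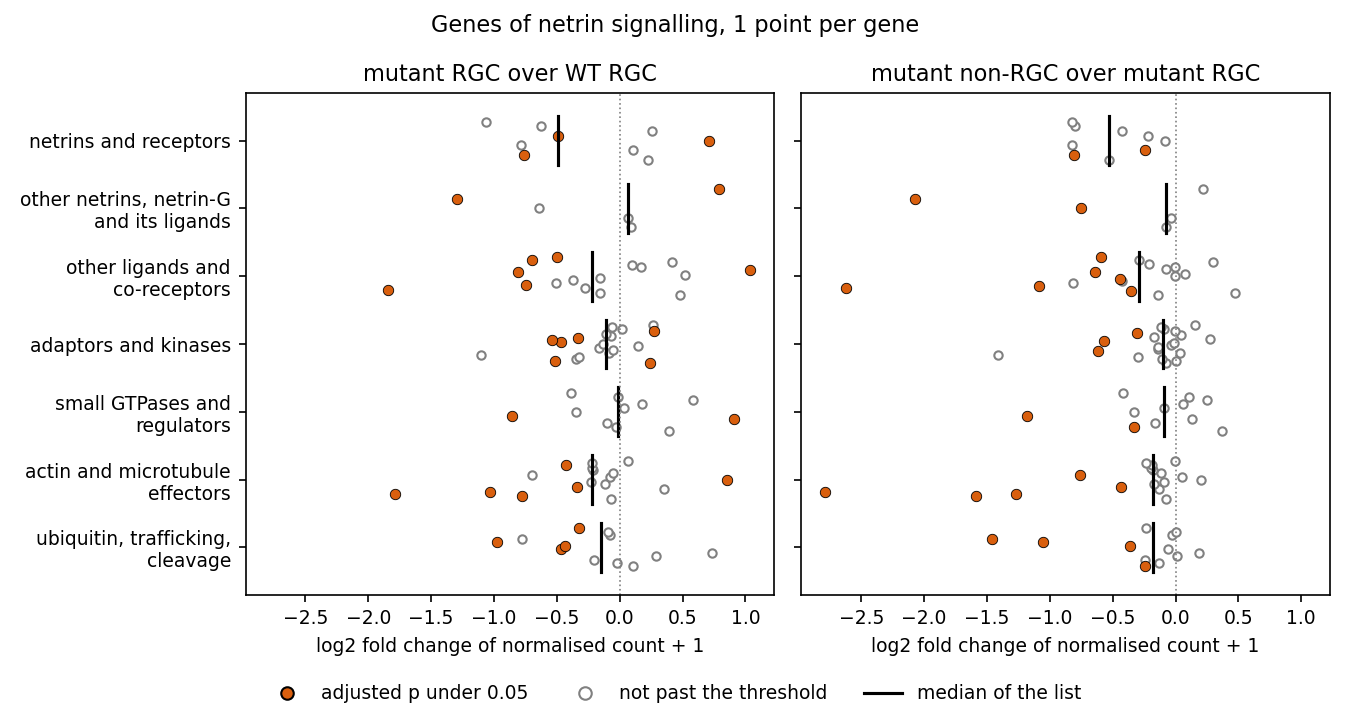
Log2 fold change on the x axis of each tested gene of the netrin set and of 6 lists of netrin signalling genes, with the median of each list as a line and called genes filled, for mutant over WT RGCs on the left and mutant non-RGC cells over mutant RGCs on the right. Filled points on the right all lie below 0, while on the left 7 lie above 0, including Ntn4.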

How the data were processed

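Poly(A) RNA was sequenced from 18 samples, and STAR 2.3, featureCounts, DESeq and FastQC with build mm10 are named in the submitters' processing notes; strand settings and annotation are not given in any source read here. The names of the deposited files show that duplicates were removed. Per the file headers, each of the authors' 2 tables holds mean normalised counts under condition A and condition B, the ratio of B over A as a deposited fold change, the log2 of that ratio, and the authors' p-value and adjusted p-value. Conditions were told apart by genes at 0, which matched in 14765 genes with 0 mismatches for mutant RGCs. Read counts of single libraries were recovered from the deposited means as whole-number solutions within 1e-09, found for at least 99.979% of genes above 0, and both tables gave identical mutant RGC counts for the 23953 genes compared. After division by the size factors of the authors' tables, genes whose mean reached 10 were kept, and limma 3.58.1 (R 4.3.3) with a variance trend was fitted to log2(value + 1), with Benjamini-Hochberg adjustment over all genes tested. Voom weights on the recovered counts were an alternative. Levels across the 3 groups use median-of-ratios factors over the 9 libraries, while tests and the means of other genes use each table's own factors. Levels of different genes were not compared, since no exon lengths were used. The rule named all 9 members, called genes of each pathway list up to 4, up to 2 of each marker list and the 2 genes most like each member; the remaining called pathway genes, except 1 that is not reported here, were added after their values were seen. The members and lists were chosen with earlier results of these data known. The steps were tested on simulated data.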

Additional observations from a re-analysis of the deposited data

How the results depend on the processing

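Between genotypes, no scaling changed the direction of a member, and leaving out mutant RGC library 1 turned that of Unc5b, uncalled, in both comparisons. Between fractions, leaving out non-RGC library 1 turned that of Ntn4, also uncalled. Without a variance trend 2112 genes were called between genotypes (1242 higher, 870 lower), of the members 1 (0 lower), and without the filter 1 member was called lower. A single fit over 9 libraries called 2820 genes lower. Leaving out 1 library gave between 3 (without mutant RGC library 2) and 6479 (without WT library 3) genes called, between 2 and 3383 higher and between 1 and 3096 lower, and between 0 and 6 members, 0 to 1 higher and 0 to 5 lower.
Between fractions, the fit without a variance trend called 1615 genes (447 higher, 1168 lower) and 0 members (0 lower). Total-count scaling called 1471 genes higher and 1 fit over 9 libraries 442. Leaving out 1 library gave between 438 (without non-RGC library 1) and 3324 (without mutant RGC library 1) genes called, between 44 and 1031 higher and between 394 and 2361 lower, and between 0 and 4 members, all lower. The causes were not tested. With 3 libraries a group, 1 library can decide a call. No paired analysis was possible because the columns carry no replicate numbers.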
